A study of Mus musculus with 2 samples.

Results

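Hepatocyte nuclei carrying interferon and chemokine transcripts were examined in livers of mice with diet-induced metabolic dysfunction–associated steatohepatitis (MASH). A nucleus was counted as a hepatocyte nucleus when it held at least 300 detected genes, at least 3000 unique molecular identifiers (UMIs, 1 per captured RNA molecule) and at most 1 UMI in all of *Reln*, *Dcn*, *Ptprb*, *Clec4g*, *Ms4a7*, *Clec4f*, *Pkhd1* and *Bcl11b*, which mark stellate, endothelial, macrophage, cholangiocyte and T cells. It was chosen when *Cxcl10*, *Rsad2*, *Ifit1*, *Ifit3*, *Cmpk2*, *Ccl2* and *Icam1* together made up at least 0.1% of its UMIs. This gave 83 chosen nuclei among 9867 hepatocyte nuclei, out of 20111 barcodes. The measured levels of these 7 genes therefore chose the nuclei, and they are given as a description. The readout was every other gene, set against the other hepatocyte nuclei of the same library.

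There were 2 single-nucleus RNA-seq libraries, 1 per genotype, and pairs of values below give the library labelled Flox first. The Flox label stands for *Themis* flox/flox mice, whose title in the labels reads WT, and the HKO label for *Themis* Alb-Cre mice, in which Cre runs from the albumin promoter of hepatocytes and the floxed *Themis* gene was to be lost. All animals were male C57BL6/J mice that received from 10 to 12 weeks of age, for 5 months, a diet that held 2% cholesterol and took 40 kcal% from fat and 20 kcal% from fructose. Livers of several mice were pooled within a genotype before nuclei were sorted, so that animals cannot be separated, there is 1 sample per group, and no test between genotypes was possible. All intervals are 95% intervals that cover counting error only, not the spread between nuclei or mice.

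*Themis*, the targeted gene, was not lower in the HKO-labelled hepatocyte nuclei. It stood at 159 and 254 CPM (counts per 1000000 UMIs) in the other hepatocyte nuclei, so genotypes are given below as library labels. Counts from the 3′ end cannot show whether the floxed part of the gene was lost, and this value therefore does not test the knockout. The libraries held 9363 and 10748 barcodes with medians of 6216 and 2227.5 UMIs, and 27 barcode sequences occurred in both, 1 of them among the chosen nuclei.

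Type I interferons act on genes that carry interferon-stimulated response elements (ISRE), while interferon-gamma acts mainly through gamma-activated sites (GAS). TNF and IL-1 act through NF-kB, which binds kappa-B sites and raises chemokines, adhesion molecules and feedback inhibitors, and IL-6 with IL-1 drives the acute phase response of hepatocytes. Among the genes that chose the nuclei, *Rsad2*, *Ifit1*, *Ifit3* and *Cmpk2* encode antiviral proteins induced by interferon. *Ccl2* encodes a chemokine that draws monocytes, *Icam1* an adhesion molecule for leukocytes, and *Cxcl10* a chemokine for T cells that both pathways can induce.

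The start regions of *Cxcl10*, *Rsad2*, *Ifit1* and *Cxcl1* are shown because they carry the motifs of both pathways at genes on which the results turn. Each sequence is the 250 bases before the RefSeq start in the GRCm38.p6 build, read 5′ to 3′ on the gene's strand, with matches, on either strand, to the ISRE (GAAA, any 2 bases, GAAA) or to kappa-B (GGG, any 3 bases, TTCC) in capitals. They lie at chr5:92348890-92349139 on the minus strand for *Cxcl10*, chr12:26456453-26456702 on the minus strand for *Rsad2*, chr19:34640639-34640888 on the plus strand for *Ifit1*, and chr5:90890995-90891244 on the plus strand for *Cxcl1*.
Cxcl10: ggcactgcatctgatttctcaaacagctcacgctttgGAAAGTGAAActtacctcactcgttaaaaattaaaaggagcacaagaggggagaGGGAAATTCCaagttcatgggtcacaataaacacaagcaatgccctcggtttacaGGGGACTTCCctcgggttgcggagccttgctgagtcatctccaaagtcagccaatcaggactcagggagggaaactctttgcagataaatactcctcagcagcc
Rsad2: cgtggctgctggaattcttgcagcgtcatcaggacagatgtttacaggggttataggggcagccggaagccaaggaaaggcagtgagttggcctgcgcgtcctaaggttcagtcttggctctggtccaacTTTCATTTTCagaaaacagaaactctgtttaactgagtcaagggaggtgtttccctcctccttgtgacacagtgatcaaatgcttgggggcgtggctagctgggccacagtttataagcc
Ifit1: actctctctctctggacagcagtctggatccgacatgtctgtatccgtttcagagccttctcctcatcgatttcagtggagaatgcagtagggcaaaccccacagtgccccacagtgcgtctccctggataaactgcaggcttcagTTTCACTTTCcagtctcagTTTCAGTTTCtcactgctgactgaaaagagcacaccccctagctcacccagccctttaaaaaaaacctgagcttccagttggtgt
Cxcl1: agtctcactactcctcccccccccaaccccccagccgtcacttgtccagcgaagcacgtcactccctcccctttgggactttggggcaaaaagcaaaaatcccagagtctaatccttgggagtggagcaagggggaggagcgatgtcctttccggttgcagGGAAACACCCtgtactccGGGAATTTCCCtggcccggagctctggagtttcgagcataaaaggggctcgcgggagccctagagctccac
*Cxcl10* held an ISRE that began 213 bases before the start and kappa-B matches 159 and 104 bases before it. *Rsad2* had 1 ISRE, 120 bases before its start, and *Ifit1* had ISREs 104 and 85 bases before it. *Cxcl1*, a neutrophil chemokine, had no ISRE and 3 kappa-B matches, at 89, 71 and 70 bases, of which the last 2 overlap.

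The chosen nuclei were rare in both libraries. They numbered 34 of 5797 hepatocyte nuclei in the library labelled Flox, a share of 0.587% (exact Clopper-Pearson interval 0.407 to 0.819), and 49 of 4070 in that labelled HKO, a share of 1.20% (0.892 to 1.59). The HKO share was 2.05 times the Flox share (1.30 to 3.28). After every hepatocyte nucleus was thinned to 3000 UMIs, the shares were 0.725% and 1.45%. In shallower nuclei of 1000 to 3000 UMIs with at least 3 hepatocyte markers the order was the opposite, 14 of 233 (6.01%, 3.32 to 9.88) and 13 of 593 (2.19%, 1.17 to 3.72). The order of the libraries thus held only above the depth limit, and why it turned was not tested.

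The chosen nuclei kept the transcripts of hepatocytes. Of *Alb*, *Ttr*, *Apob*, *Cps1*, *Abcc2*, *Hnf4a* and *Slc10a1*, a median of 5 was detected in the chosen nuclei of either library and 6 in the others, and 31 of 34 and 45 of 49 chosen nuclei held at least 3. Depth differed little, with medians of 7071.5 and 5983 UMIs per chosen nucleus against 7555 and 6136 in the others, and so did mitochondrial UMIs, with medians of 0.181% and 0.109% against 0.191% and 0.126%.

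The 7-gene share in the chosen nuclei ranged in the Flox-labelled library from 0.102% over a median of 0.247% to 2.52% of UMIs, and in the HKO-labelled library from 0.108% over 0.186% to 4.15%. The highest nuclei that were not chosen stood at 0.0981% and 0.0951%, so that no gap marked the threshold. The chosen nuclei held 47.1% and 62.2% of all UMIs of the 7 genes in hepatocyte nuclei. A single nucleus held 12.6% and 28.5% of the UMIs in the chosen nuclei.

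Other cell types also held such nuclei. Among nuclei of at least 3000 UMIs, 8 of 132 stellate and 9 of 85 macrophage nuclei of the library labelled Flox passed the 0.1% threshold, and 10 of 121 and 1 of 48 of that labelled HKO. Endothelial nuclei passed in 3 of 200 and 1 of 131 cases.

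*Cxcl10* was the most abundant of the 7 genes in the Flox-labelled chosen nuclei at 1274 CPM, against 1.35 CPM in the other hepatocyte nuclei, and stood at 1246 against 2.39 CPM in the HKO-labelled library. *Rsad2* reached 875 and 1495 CPM against 1.07 and 1.72 CPM. *Icam1* had the highest level outside the chosen nuclei, 14.8 and 25.1 CPM, and stood at 581 and 710 CPM inside. To read each gene without its own part in the choice, nuclei were also chosen on the other 6 genes alone. The ratio to the remaining hepatocyte nuclei was then 192 (156 to 234) and 232 (190 to 284) for *Cxcl10*, 485 and 649 for *Rsad2*, 365 and 29.2 for *Ccl2*, and 27.04 and 18.1 for *Icam1*. Of the 59 *Ccl2* UMIs in Flox-labelled chosen nuclei, 34 lay in 1 nucleus, which held both sets of genes described next.

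The 7 genes were read as 2 sets. With a set counted as present at 0.05% of UMIs, a division made after the data had been seen, 13 and 18 chosen nuclei held only the interferon set (*Rsad2*, *Ifit1*, *Ifit3*, *Cmpk2*), and 17 and 25 held only the chemokine set (*Ccl2*, *Icam1*). Both sets were present in 1 and 2 nuclei, and neither in 3 and 4, which were chosen mainly through *Cxcl10*. Since the nuclei were chosen on the sum of these genes and then divided by them, the low level of 1 set in nuclei of the other follows from the division. Over all hepatocyte nuclei, chosen or not, the chemokine set was present in 1 of 19 and 2 of 26 nuclei with the interferon set, 5.26% (0.133 to 26.0) and 7.69% (0.946 to 25.1), against 0.519% and 1.34% of the rest.

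**Figure D1:**
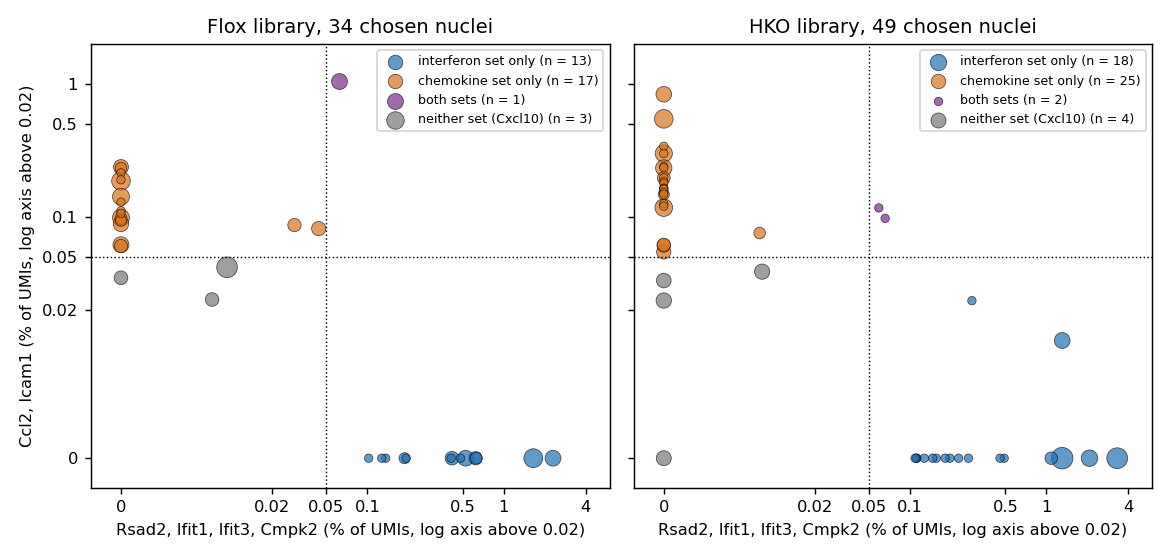
Each point is 1 chosen nucleus of the library labelled Flox (left) or HKO (right), placed by the share of its UMIs from *Rsad2*, *Ifit1*, *Ifit3* and *Cmpk2* (horizontal, percent, log axis above 0.02) and from *Ccl2* and *Icam1* (vertical, percent, log axis above 0.02). The point size grows with the *Cxcl10* share, dotted lines mark 0.05%, and only 1 and 2 nuclei lie in the upper right field.

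The few nuclei with both sets lacked hepatocyte transcripts. All 3 had 0 UMIs of *Alb* and *Apob* and at most 1 of the 7 hepatocyte markers. Both HKO-labelled ones held macrophage transcripts, with 86 and 21 UMIs over 16 macrophage markers and 10 and 3 UMIs of *Ptprc*, the leukocyte marker CD45. The Flox-labelled one held 34 UMIs of *Ccl2*, 0 UMIs of the macrophage markers and none of *Ptprc*. Among nuclei with at least 3 hepatocyte markers, 17 and 24 passed 0.05% for the interferon set and 28 and 51 for the chemokine set, with no 7-gene threshold applied, and 0 for both. A count of 0 allows up to 17.6% and 12.5% of the interferon-set nuclei, while the chemokine set was present in 0.485% and 1.26% of all such hepatocyte nuclei. These nuclei are too few to show whether the sets exclude each other.

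*Cxcl10* occurred with either set. It reached 0.05% of UMIs in 6 of 19 and 5 of 26 hepatocyte nuclei with the interferon set, 31.6% (12.6 to 56.6) and 19.2% (6.55 to 39.4). In nuclei with the chemokine set it did so in 10 of 31 and 9 of 56, 32.3% (16.7 to 51.4) and 16.1% (7.62 to 28.3). In hepatocyte nuclei without the interferon set the share was 0.242% and 0.470%, and in those without the chemokine set 0.173% and 0.374%, where each of these groups still includes nuclei with the other set.

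Both higher and lower genes were found across the genome. Of 4256 genes with enough UMIs (at least 10 expected in the chosen nuclei of each library from the mean of the chosen and other levels), 135 were at least 2-fold higher in both libraries, which is 3.17% of the genes tested, and 16 at least 2-fold lower in both, 0.376%. The numbers of higher and lower genes cannot be compared, because a gene low in the other nuclei could hold enough UMIs only by being high in the chosen ones, and with no filter there were 668 higher and 5072 lower genes. These counts rest on size alone, since nuclei of 1 library are not replicates. The median log2 ratio over all tested genes was -0.01 and -0.02. Of the 135 higher genes, 51 were at least 2-fold higher in nuclei of the interferon set than in those of the chemokine set in both libraries, 43 were at least 2-fold higher in the chemokine set, and 41 lay between.

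Interferon-stimulated genes stood highest among the genes that did not choose the nuclei. *Ifit3b*, a near copy of *Ifit3* whose reads may be shared with it, was at 97.3 and 81.4 CPM in the chosen nuclei against 0.342 and 0.225 CPM, a ratio of 284 and 363. *Isg15*, a ubiquitin-like antiviral protein, was at 426 and 304 CPM against 6.72 and 5.43 CPM, a ratio of 63.5 (50.8 to 78.9) and 56.0 (42.8 to 72.9). *Ifi44* had ratios of 37.3 and 29.5, *Oasl1*, an inhibitor of *Irf7* translation, 24.7 and 35.3, *Trim30a* 18.1 and 13.0 and the ubiquitin ligase *Herc6* 11.4 and 10.1. Of the 48 measured genes of the interferon-stimulated list, 31 had enough UMIs, and 25 of these were past 2-fold in both libraries and 0 lower. The shares over all tested genes were 3.17% higher and 0.376% lower. Because a gene could reach enough UMIs through the chosen nuclei themselves, the sum over all 48 is the fairer measure. It was 6493 and 5729 CPM against 1501 and 1369 CPM, a ratio of 4.33 (4.12 to 4.54) and 4.18 (3.99 to 4.39).

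This difference was concentrated in the interferon set. Per nucleus, the summed list ran in the Flox-labelled library from 4118 over a median of 11846 to 27147 CPM in nuclei of the interferon set, and from 234 over 1794 to 7709 CPM in those of the chemokine set. The HKO-labelled nuclei ran from 1489 over 9014 to 25740 CPM and from 213 over 1578 to 3621 CPM. The ranges overlapped while the medians lay several-fold apart. Summed over nuclei, the ratio to the other hepatocyte nuclei was 8.46 (7.996 to 8.95) and 8.49 (8.05 to 8.94) in the interferon set and 1.72 (1.55 to 1.91) and 1.23 (1.08 to 1.38) in the chemokine set.

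*Oasl1* had 60 UMIs in nuclei of the interferon set of either library and 0 UMIs in those of the chemokine set. In hepatocyte nuclei neither chosen nor rich in interferon-induced GTPases it stood at only 9.04 and 5.51 CPM. The few chemokine-set nuclei could give 0 UMIs at such a level too, so the 0 does not show a lower one. *Isg15* had ratios of 153 and 138 in the interferon set and of 9.30 and 2.34 in the chemokine set. The viral RNA sensors *Ddx58* (RIG-I) and *Ifih1* (MDA5) had ratios of 5.83 and 9.49 and of 4.76 and 10.3 in the interferon set, and between 0.873 and 1.75 in the chemokine set. *Usp18*, the inhibitor that blocks the type I receptor, was 20.96 and 17.2 times higher in the interferon set.

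Transcripts of the interferons were not detected in the chosen nuclei. Of 9 measured ligand genes, *Ifna1*, *Ifna2*, *Ifna4*, *Ifnb1*, *Ifne*, *Ifnl2*, *Ifnl3* and *Ifng* had 0 UMIs in all hepatocyte nuclei and *Ifnk* had 0 in the chosen ones, where 0 UMIs allow up to 11.2 and 9.39 CPM. The receptor genes *Ifnar1* (ratios 1.15 and 1.34) and *Ifnar2* (1.46 and 2.25) did not pass 2-fold in both libraries.

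**Figure D2:**
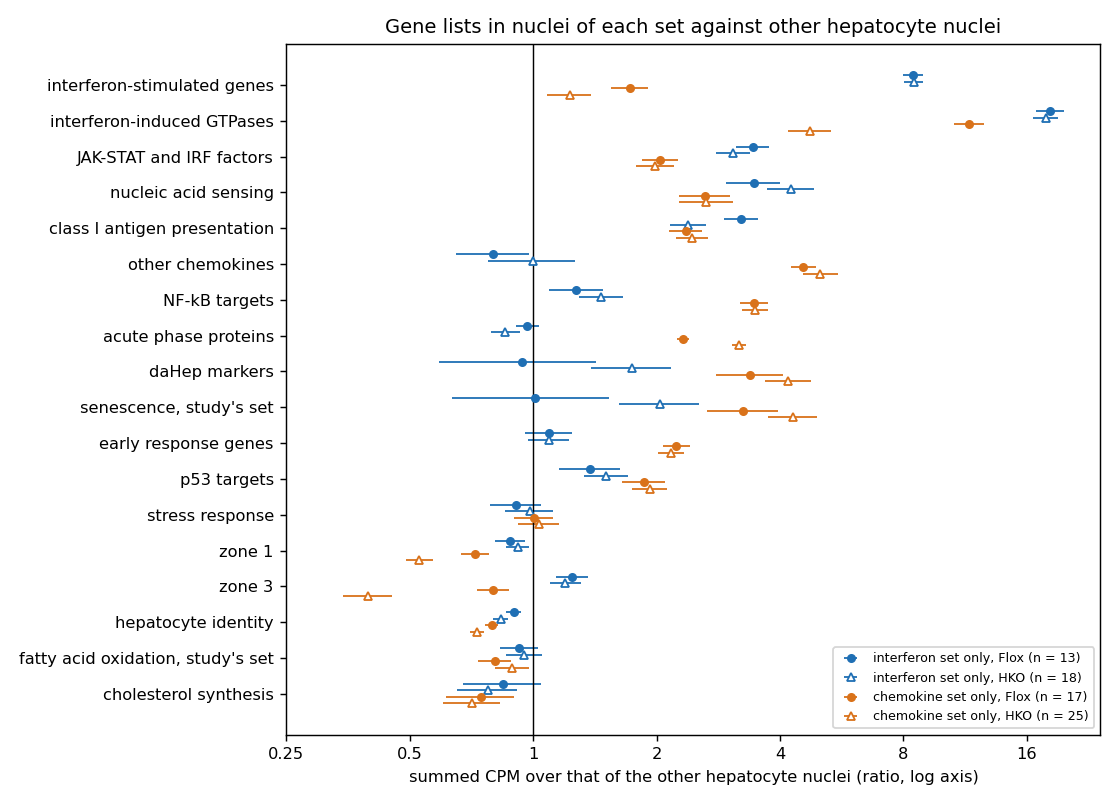
Summed CPM of each gene list in nuclei of the interferon set (blue) and of the chemokine set (orange), divided by that of the other hepatocyte nuclei of the same library (ratio, log axis), with 95% intervals for counting error; filled circles are the library labelled Flox and open triangles that labelled HKO. The interferon-stimulated list lies near 8.5 in the interferon set of both libraries, and NF-kB targets near 3.5 in the chemokine set.

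NF-kB targets and acute phase genes stood out in the chemokine set. *Tnfaip3*, which encodes the feedback inhibitor A20, had 47 and 53 UMIs in its nuclei, 39.7 (28.7 to 53.9) and 25.4 (18.7 to 34.0) times the level of the other hepatocyte nuclei, and 0 UMIs in either library's interferon-set nuclei. The other hepatocyte nuclei held only 8.22 and 13.2 CPM, a level at which the few interferon-set nuclei could also give 0 UMIs. The 0 therefore does not show a level below theirs. *Nfkbia*, the inhibitor IkB-alpha, had ratios of 6.57 and 4.38 in the chemokine set against 0.618 and 1.26 in the interferon set. *Cxcl1* had ratios of 7.50 and 23.04 against 0.497 and 0.631, and *Ikbke* 9.40 and 10.5 against 0.758 and 1.06. Of 40 measured NF-kB targets, 14 had enough UMIs, 10 of these were past 2-fold in both libraries and 0 lower. Here too a gene could reach enough UMIs through the chosen nuclei, and 3.17% of all tested genes were past 2-fold higher and 0.376% lower. Summed over all 40, the ratio in the chosen nuclei was 2.73 (2.56 to 2.90) and 2.63 (2.48 to 2.79).

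The summed NF-kB targets, per nucleus of the chemokine set, ran from 2062 over a median of 5340.5 to 11074 CPM in the Flox-labelled library and from 1263 over 4410.1 to 16477 CPM in the HKO-labelled one. In the interferon set they ran from 572 over 1692 to 3060.2 CPM and from 781 over 1969 to 3252 CPM. The medians differed while the ranges overlapped, and the summed ratios were 3.46 (3.20 to 3.73) and 3.48 (3.24 to 3.74) against 1.28 (1.09 to 1.48) and 1.47 (1.29 to 1.66). The other chemokines, led by *Cxcl1*, had ratios of 4.56 and 5.02 in the chemokine set and of 0.799 and 0.998 in the interferon set. Receptors for TNF, IL-1 and IL-6 differed little over all chosen nuclei, with a summed ratio of 0.965 (0.848 to 1.09) and 1.04 (0.928 to 1.17). Past 2-fold in both libraries were 0 of 7 tested, against 3.17% higher and 0.376% lower of all tested genes.

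**Figure D3:**
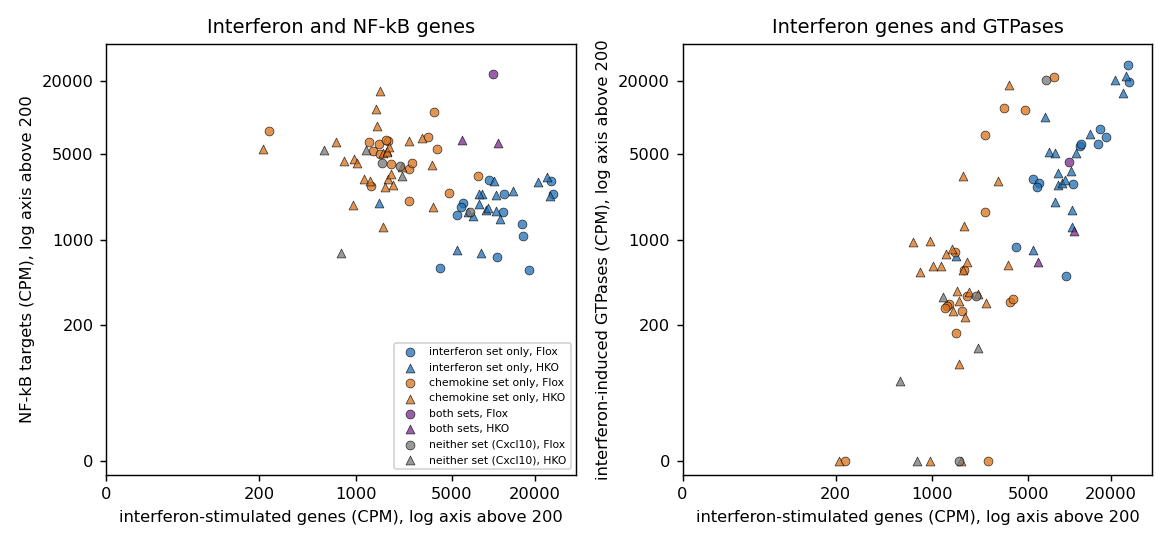
Each point is 1 chosen nucleus (circles, library labelled Flox; triangles, HKO), coloured by the set it held. Both panels show the summed CPM of interferon-stimulated genes on the horizontal axis, against NF-kB targets (left) and interferon-induced GTPases (right), on log axes above 200 CPM. Nuclei of the interferon set lie to the right and low for NF-kB targets, and a few orange points lie as high as the blue ones for GTPases.

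Acute phase proteins, secreted by hepatocytes in inflammation, made up 23851 and 17762 CPM in nuclei of the chemokine set, against 10257 and 5593 CPM in the other hepatocyte nuclei, a ratio of 2.33 (2.25 to 2.40) and 3.18 (3.06 to 3.30). In the interferon set the ratio was 0.968 and 0.855. Of 28 measured genes, 27 were tested and 14 were past 2-fold in both libraries over all chosen nuclei, with 0 lower. Among all tested genes 3.17% were past 2-fold higher and only 0.376% lower. *Saa3* had 45 and 18 UMIs in nuclei of the chemokine set and 0 in those of the interferon set, and *Orm2* had ratios of 20.4 and 23.1 in the chemokine set. For *Saa3* a 0 in so few nuclei does not show a level below that of the other hepatocyte nuclei. The iron-trapping *Lcn2* had ratios of 10.5 and 8.59, and *Hp*, the haemoglobin-binding haptoglobin, 2.86 and 3.04. Serum amyloid and orosomucoid genes are near-identical families whose reads may be divided among copies.

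The study's markers of disease-associated hepatocytes (daHep) and its senescence set were higher in the chemokine set too. Both lists are the study's own and share *Gdf15*, so that they are not independent of each other. The 6 daHep markers, *Gdf15*, *Jun*, *Klf6*, *Nrg1*, *Anxa2* and *Sox4*, summed to 799 and 1528 CPM in its nuclei against 236 and 364 CPM in the other hepatocyte nuclei, a ratio of 3.39 (2.79 to 4.07) and 4.19 (3.67 to 4.76). The interferon set had ratios of 0.940 and 1.75. Over all chosen nuclei the transcription factors *Klf6* (3.003 and 3.47) and *Jun* (2.62 and 2.42) were past 2-fold in both libraries, and the stress cytokine *Gdf15* (1.74 and 3.62) was not. Only these 3 of the 6 markers held enough UMIs, so *Nrg1*, *Anxa2* and *Sox4* were not read singly. The senescence set had ratios of 3.26 and 4.31 in the chemokine set, and only 3 of its 39 measured genes held enough UMIs. Early response genes had ratios of 2.23 and 2.17 there and 1.09 in the interferon set of either library. That list also contains *Klf6* and *Jun*, so it is not independent of the daHep markers.

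Several genes of metabolism were among the lowest, and the metabolic lists as a whole stood somewhat below the other hepatocyte nuclei. Over all chosen nuclei 0 of 15 tested genes of lipogenesis (summed ratio 0.859 and 0.893), 0 of 21 of fatty acid oxidation (0.856 and 0.895) and 0 of 5 of cholesterol synthesis (0.762 and 0.744) were past 2-fold lower in both libraries. Only 0.376% of all tested genes were, so these counts of 0 do not set the lists apart. The intervals of the summed ratios all lay below 1, and the highest upper end was 0.955. The 10 lowest genes over all chosen nuclei included *Hal* (0.2501 and 0.299) and *Amdhd1* (0.385 and 0.435), which break down histidine, *Etnppl* (0.274 and 0.253), *Gnmt* (0.436 and 0.419), the glucose transporter *Slc2a2* (0.401 and 0.416), the carbonic anhydrase *Car3* (0.378 and 0.432) and the lipogenic regulator *Thrsp* (0.428 and 0.418). Not all were low in nuclei chosen on the interferon genes alone. There the smaller log2 ratio of both libraries was -0.26 for *Hal*, -0.20 for *Etnppl*, -0.40 for *Gnmt* and -0.47 for *Thrsp*. For *Amdhd1* it was -0.88. *Slc2a2* was low in both sets, at 0.399 and 0.521 of the level of other hepatocyte nuclei in the interferon set and at 0.432 and 0.394 in the chemokine set. *Car3* was at 0.142 and 0.190 of the level of other hepatocyte nuclei in the chemokine set and at 0.794 and 0.816 in the interferon set. *Cyp7a1*, the rate-limiting enzyme of bile acid synthesis, was at 0.263 and 0.241 against 0.866 and 0.930. *Alb* was at 0.388 and 0.504 of the other nuclei in the chemokine set.

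Genes of the periportal zone 1 summed to a ratio of 0.722 and 0.528 in the chemokine set and of 0.880 and 0.918 in the interferon set. Pericentral zone 3 genes were at 0.799 and 0.395 in the chemokine set and at 1.25 and 1.20 in the interferon set. The hepatocyte identity list was at 0.792 and 0.728 in the chemokine set and at 0.896 and 0.832 in the interferon set, so both sets stood below the other hepatocyte nuclei.

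Interferon-induced GTPases, which attack the vacuoles of intracellular pathogens, did not follow the interferon set alone. All 9 tested of 17 measured members were past 2-fold in both libraries, among them *Gbp6* (41.0 and 20.4), *Gbp10* (34.8 and 20.8), *Gbp7* (27.1 and 12.6) and *Igtp* (21.8 and 11.2), and the copies of this family share sequence. Over all tested genes the share past 2-fold higher was 3.17%. The GTPase genes, too, could reach enough UMIs through the chosen nuclei themselves, which favours a high count. The sum over all 17 is therefore the fairer measure. Its ratio to other hepatocyte nuclei was 18.3 and 17.8 in the interferon set and 11.6 and 4.73 in the chemokine set. Most of the latter came from few nuclei: those with at least 0.5% of UMIs from GTPases, a limit set after the values were seen, were 4 of 17 and 1 of 25 nuclei of the chemokine set and held 92.4% and 61.2% of its GTPase UMIs.

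These GTPase-rich nuclei differed from the rich nuclei of the interferon set in their other genes. The 5 Flox-labelled ones outside the interferon set, 1 of which held neither set, had 89 UMIs of *Cxcl9*, a chemokine typical of interferon-gamma, 24 of *Socs1*, a feedback inhibitor of JAK kinases, and 58 of *Irf1*. They had 9 of *Isg15* and 0 of *Oasl1*. The 7 rich Flox-labelled nuclei of the interferon set had 0 UMIs of *Cxcl9*, 5 of *Socs1*, 15 of *Irf1*, 72 of *Isg15* and 47 of *Oasl1*. *Cxcl9* was present in 4 of the 5 nuclei, at 7 to 39 UMIs. *Socs1* was raised in both of these Flox-labelled groups, at 450 and 82.4 CPM against 0.664 CPM in hepatocyte nuclei neither chosen nor GTPase-rich. The single HKO-labelled nucleus held 112 UMIs of the GTPase *Iigp1*, 12 of *Irf1*, 5 of *Socs1* and 0 each of *Cxcl9*, *Isg15* and *Oasl1*. The 8 rich HKO-labelled nuclei of the interferon set also had 0 of *Cxcl9*, with 10 of *Socs1*, 23 of *Irf1*, 76 of *Isg15* and 40 of *Oasl1*. Relative to all UMIs the single nucleus stood higher than these 8, at 1243 against 390 CPM for *Irf1* and 518 against 169 CPM for *Socs1*. All 6 rich chosen nuclei outside the interferon set held at least 3 hepatocyte markers and 0 UMIs of *Ptprc*.

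Class I antigen presentation was higher in both sets, with ratios of 3.22 and 2.39 in the interferon set and 2.36 and 2.44 in the chemokine set. Over all chosen nuclei, 10 of 15 tested genes were past 2-fold in both libraries, among them *H2-Q6* (5.71 and 4.91) and *Tapbp*, part of the peptide-loading complex (3.92 and 3.31), and *B2m*, the invariant chain, was at 1.74 and 1.69. Over all tested genes the share past 2-fold higher was 3.17%. The class I count, too, includes genes that could reach enough UMIs through the chosen nuclei. The sum over all 20 measured genes had a ratio of 2.76 and 2.35. The growth factor *Csf1*, which sustains macrophages, was also higher in both sets, 7.11 and 9.87 times in the interferon set and 5.597 and 12.2 times in the chemokine set. The transcription factor *Irf1* was higher in the chemokine set (11.3 and 7.83) than in the interferon set (2.61 and 3.54), and *Irf7* the other way round (3.33 and 1.35 against 8.47 and 13.4). *Themis* had ratios of 1.01 (0.733 to 1.37) and 1.22 (0.989 to 1.49) over all chosen nuclei.

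Macrophage markers were higher in the chosen nuclei through few nuclei. The 16 markers summed to 370 and 429 CPM against 71.9 and 109 CPM, a ratio of 5.15 and 3.92, and 1 nucleus of each library held 64.6% and 62.8% of the UMIs. In the Flox-labelled library this was a nucleus of the chemokine set with 64 macrophage-marker UMIs and 19 of *Ptprc*, and in the HKO-labelled one the nucleus with 86 that held both sets. Their part in the results was not tested beyond the following values. The macrophage ratio was 4.07 and 0.862 in the interferon set and 6.66 and 0.985 in the chemokine set, so that it was high in the Flox-labelled library, where 1 nucleus held 51.7% of these UMIs in the interferon set and 92.8% in the chemokine set. Without nuclei of at least 10 macrophage-marker UMIs, 131 genes were past 2-fold higher, all of them among the 135, and the ratios of both sets stayed within their intervals. Dendritic cell and neutrophil markers had ratios of 3.09 and 3.82 in the interferon set; the list contains *Bst2*, which interferon also induces and which was 2.47 and 3.33 times higher over all chosen nuclei. B and plasma cell markers had summed ratios of 0.182 and 0.136, on only 4 and 9 UMIs in the chosen nuclei. The share of nuclei with such a UMI differed little, at 11.8% and 14.3% against 12.3% and 13.8% of the others. Endothelial markers had summed ratios of 1.34 and 1.96, cholangiocyte markers of 0.963 and 2.11, and stellate markers of 1.62 and 0.828. In the HKO-labelled library 1 nucleus held 32.6% of the endothelial UMIs, and 1 held 32.7% of the cholangiocyte UMIs. In the Flox-labelled one 1 nucleus held 61.1% of the stellate UMIs.

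The gene lists were also read over the whole range of the 7-gene share. NF-kB targets summed to 1347 and 1360.3 CPM in hepatocyte nuclei without a UMI of the 7 genes and already to 3138 and 3276 CPM in the 29 and 51 nuclei at 0.05 to 0.1%, just outside the threshold. Interferon-stimulated genes stood there at 2269 and 2163 CPM and reached 14197 and 14411 CPM in the 9 and 8 nuclei at or above 0.5%. The uppermost bins hold under 20 nuclei each.

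**Figure D4:**
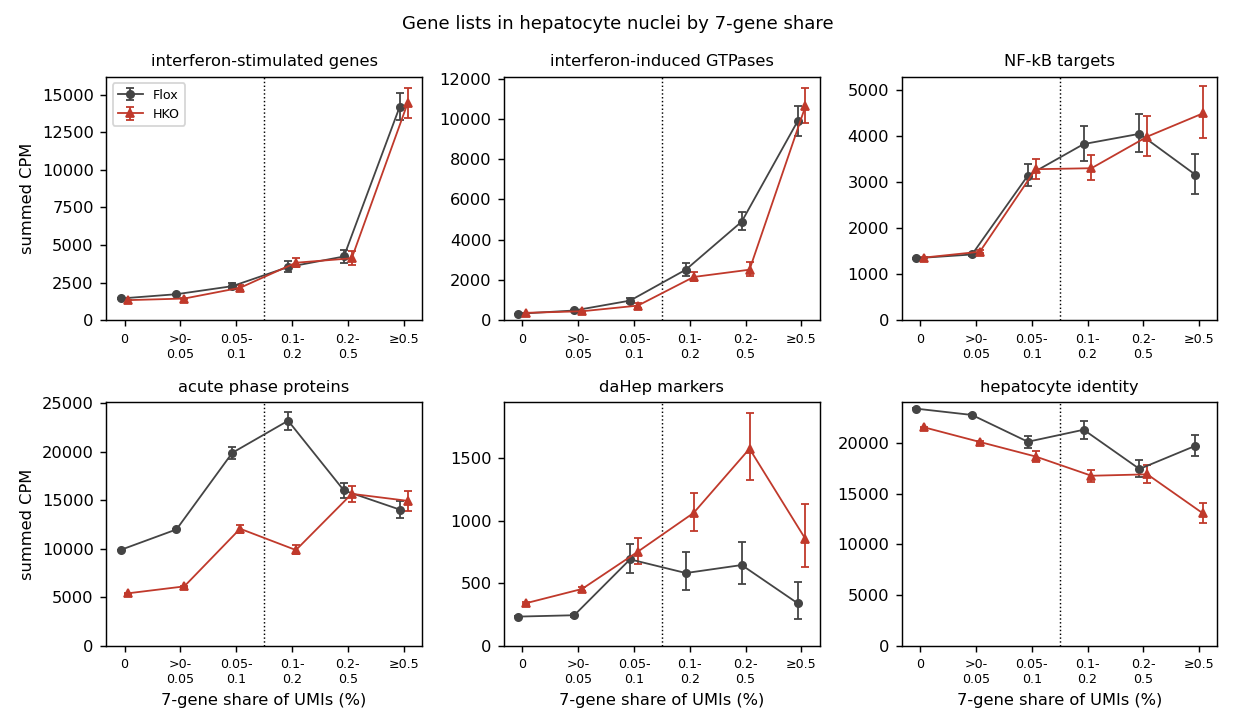
Summed CPM of 6 gene lists (vertical axes, from 0) in hepatocyte nuclei binned by the share of UMIs from the 7 genes (percent), for the libraries labelled Flox (grey circles) and HKO (red triangles), with 95% intervals for counting error; the dotted line marks the 0.1% threshold. Interferon-stimulated genes climb most steeply in the last bin, and NF-kB targets have more than doubled in the bin before the threshold.

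Promoter motifs were counted in the 300 bases from 250 before to 50 after each RefSeq start, on both strands, beside all genes of the promoter table. The ISRE was present in 16 of 42 matched genes of the 51 on the interferon side (38.1%), in 2 of 33 matched of the 43 on the chemokine side (6.06%) and in 3.99% of all genes. Kappa-B was present in 5 of the 42 (11.9%), in 6 of the 33 (18.2%) and in 6.31% of all genes. Of the 41 genes that lay between the sets, 33 were matched, and the ISRE and kappa-B were each present in 6 of them (18.2%), so that the share with kappa-B equalled that of the chemokine side. GAS (TTCNNNGAA) was present in 14.3% of the interferon side, 12.1% of the chemokine side and 9.55% of all genes. Among the tested genes, from which the sides were drawn, the shares were 4.25% for the ISRE, 7.43% for kappa-B and 8.52% for GAS. Of the 7 genes that chose the nuclei, 6 were matched, and 4 held an ISRE and 1, *Cxcl10*, a kappa-B match. A match is a description of letters, not of binding.

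Of the 4256 tested genes, 146 (3.43%) had ratio intervals that did not overlap between the libraries, which is a comparison of these libraries and not of genotypes. *Saa2* was at 4.54 (3.82 to 5.37) and 15.7 (12.9 to 19.0), and *Cxcl1* at 4.84 and 13.8. *Rcan1*, an inhibitor of calcineurin, was at 15.7 and 4.36 and *Adamts6* at 6.86 and 1.52. *Saa2* and *Cxcl1* stood lower in the other hepatocyte nuclei of the HKO-labelled library, at 25.5 against 118 CPM and at 99.6 against 609 CPM, while the chosen nuclei had 401 against 535 CPM and 1378 against 2944 CPM.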

How the data were processed

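Single-nucleus UMI counts of 32285 genes were used as the authors deposited them: 1 filtered count matrix per library, from sorted liver nuclei (10x 3′ chemistry), made with Cell Ranger 8.0.1 per the submitters' processing notes, with intronic reads excluded. Total UMIs were 5.81713e+07 (Flox) and 4.04759e+07 (HKO). Groups came from the labels.

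Counts of the chosen and of the other hepatocyte nuclei were summed per library and divided by their UMIs other than those of the 7 choosing genes. Ratios have exact conditional binomial intervals, levels exact Poisson and shares Clopper-Pearson intervals, at 95%, and UMIs of 1 pool of nuclei make these cover counting error only. Genes with at least 10 expected UMIs in the chosen nuclei of each library, from the mean of the chosen and other CPM, were read, and past the fold means 2-fold in both libraries. Log2 values used a pseudocount of 1 CPM. No p-value was computed, with 1 library per group. A count of 0 was read as up to 3 counts. The named genes were the 15 with the highest and the 10 with the lowest ratio (by the smaller of both libraries' changes), the 2 highest and 2 lowest members of each of 32 lists, all daHep, interferon ligand and receptor and *Themis*-related genes, and the 5 genes on either side that differed most between libraries. Further genes named for the sets or the GTPase-rich nuclei, the 0.05% and 0.5% limits, and the division into sets were chosen after their values were seen. The members and lists were chosen with earlier results of these data known. Doublets were not removed in the main analysis, and removal with Scrublet, which took out 701 and 920 barcodes and 1 chosen nucleus of either library, was an alternative. Steps were tested on simulated data. Tools were Python 3.11.15, numpy 2.4.6, scipy 1.17.1, pandas 2.3.3, scanpy 1.11.5 and matplotlib 3.10.9. Some genes are not reported here. Promoters came from RefSeq on GRCm38.p6.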

Additional observations from a re-analysis of the deposited data

Results flagged for a closer look

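*Angptl8*, an insulin-induced regulator of lipoprotein lipase, differed in direction between the libraries. Its ratio of chosen to other hepatocyte nuclei was 1.53 (1.02 to 2.20) for Flox and 0.361 (0.214 to 0.572) for HKO. *Xpo7*, a nuclear transport receptor, was at 1.995 (1.39 to 2.78) and 0.567 (0.301 to 0.971). Both stood out because the intervals lie on opposite sides of 1, and with 1 library per group the difference was not tested.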

How the results depend on the processing

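Alternatives are given as Flox, then HKO, and those on left-out nuclei and on hepatocyte markers alone were chosen after seeing the data. Of 1473 recomputed values, 1249 stayed within their limits, 218 moved and 6 reversed. The share of chosen nuclei was 1.09% and 2.46% at a threshold of 0.05%, 0.345% and 0.541% at 0.2%, and 0.328% and 0.639% with the interferon genes alone, while the HKO-to-Flox ratio ranged from 1.57 to 2.57. Higher genes numbered 77 when nuclei were thinned, 668 with no filter and 31 at 50 expected UMIs. Lower genes numbered 3 with the interferon genes alone, 38 with the chemokine genes alone, 28 as a mean over nuclei, 5072 with no filter and 3 at 50 expected UMIs.

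Interferon-stimulated genes in the interferon set had ratios of 7.17 and 7.61 at 0.05%, 10.2 and 10.75 at 0.2%, 7.47 and 7.70 when thinned, and 7.80 and 7.435 without the top nucleus of each library. With at least 3 hepatocyte markers required and at most 3 UMIs of B, plasma, dendritic cell and neutrophil markers, they were 7.91 and 6.81. Those immune markers include the interferon-induced *Bst2*. With the hepatocyte markers required alone the ratios were 8.68 and 8.54, within their intervals. In the HKO-labelled library alone the ratio also moved to 9.03 at a higher minimum of UMIs, 7.83 at 0 gate-marker UMIs and 8.04 as a mean over nuclei. NF-kB targets in the chemokine set had ratios of 4.03 and 3.80 at 0 gate-marker UMIs, of 3.84 as a mean over nuclei in the Flox-labelled library, and of 3.10 at 0.05% and 4.73 at 0.2% in the HKO-labelled one. With the interferon genes alone, the median log2 ratio of the acute phase list was -0.23 and -0.084 and the smaller log2 ratio of *Tnfaip3* -0.27. With the chemokine genes alone that of *Oasl1* was -0.32. With no filter the median of the senescence set was -0.20 and -0.25. The cause was not tested. No paired analysis was possible because each group held 1 library, and animals were pooled. For the same reason no replicate could be left out. Depth limits what a count of 0 allows to 11.2 and 9.39 CPM in the chosen nuclei. In nuclei of either set alone, which hold fewer UMIs, a count of 0 allows a higher level.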

Other observations

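GTPase-rich nuclei also lay outside the chosen class. There were 7 Flox-labelled and 10 HKO-labelled ones among the other hepatocyte nuclei, all with at least 3 hepatocyte markers and 0 UMIs of *Ptprc*. The 7 held 362 UMIs of *Iigp1*, 25 of *Irf1*, 16 of *Cxcl9*, 11 of *Socs1* and 3 of *Isg15*. The 10 held 286 UMIs of *Iigp1*, 1 of *Socs1* and 0 of *Cxcl9* and *Isg15*.

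Within the chemokine set, nuclei with more *Ccl2* than *Icam1* UMIs numbered 3 and 10, and the others 14 and 15. The other chemokines were lower in the former in both libraries, at 3679 against 5971 CPM (Flox) and 1605 against 3338 CPM (HKO). The daHep markers went in opposite directions, at 537 (286 to 919) against 852 (695 to 1034) CPM for Flox, where the former are 3 nuclei, and at 1994 against 1248 CPM for HKO. This division was made after the data had been seen and was not tested.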
